A study of Mus musculus with 5 samples.

Results

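Cadherins are calcium-dependent adhesion proteins that join like cell to like cell. Through catenins, the tails of the classical members connect to the actin cytoskeleton. Epithelia are held together mainly by E-cadherin and P-cadherin, whereas neural and mesenchymal cells use N-cadherin and a varied set of relatives whose combinations mark regions and cell groups of the developing brain. A change from epithelial to neural or mesenchymal cadherins accompanies the formation of the neural tube and the loss of epithelial character.

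The 8 genes described here were chosen by name as the epithelial pair Cdh1 (E-cadherin) and Cdh3 (P-cadherin) and 6 neural and mesenchymal genes, Cdh2 (N-cadherin), Cdh4 (R-cadherin), Cdh6, Cdh8, Cdh11 and Cdh13 (T-cadherin). They are 8 of 21887 protein-coding genes used. The assay was ATAC-seq, which reads accessible DNA from where a transposase cuts it, in CD1 mouse embryos that carry no labelled mutation or treatment. The groups were distal forelimb ectoderm at E14.5 of gestation (2 libraries), distal hindlimb ectoderm at E14.5 (2 libraries) and forebrain at E13.5 (1 library). Trypsin was used to free ectoderm from mesoderm, and collagenase to dissociate forebrain. Effects of tissue, of stage and of dissociation therefore cannot be told apart. The labels do not say whether the 2 libraries of a limb came from separate embryos, and their spread may be only technical.

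Each library came as a list of peak summits called above the local background. A summit was given to a cadherin gene if it lay inside the gene or within 100 kb of it and no other protein-coding gene was nearer. The 5 lists held 82649 and 81232 summits in forelimb ectoderm replicates 1 and 2, 55391 and 86219 in hindlimb ectoderm replicates 1 and 2, and 151077 in forebrain. Because list length differs, counts are also given per 10000 summits of the library's own list. Peaks of all libraries were merged into 231612 regions, of which 405 were assigned to the 8 genes. Background rates, solved from the folds and p-values of the peaks, were 3.1, 3.68, 4.36 and 4.12 reads per position in the ectoderm libraries and 4.62 in forebrain, and the fewest reads at any called summit numbered 10, 11, 12 and 12 in ectoderm and 12 in forebrain. A missing peak therefore means that fewer reads were found than the authors' threshold needed, not that the site was closed. The farthest summit that the distance limit let in was a forebrain summit 99.047 kb from Cdh11 with a fold enrichment of 3.03, and the nearest one left out was a forebrain summit 100.052 kb from Cdh6 with a fold enrichment of 4.96.

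The tissue labels were checked against marker genes by asking whether either gene end had a summit within 1 kb. Over all 21887 protein-coding genes, 13154 and 12599 had one in forelimb replicates 1 and 2. In hindlimb replicates 1 and 2, 11240 and 13064 had one, and in forebrain 14160 did. Of 10 epidermal markers, 9, 10, 6 and 9 had such a peak in forelimb replicates 1 and 2 and hindlimb replicates 1 and 2, against 5 in forebrain. Krt5, Krt14, Krt15, Trp63 and Tfap2a had none in forebrain. Of these, Tfap2a had one in every ectoderm library. Krt5, Krt14 and Krt15 had none in hindlimb replicate 1, and Trp63 had one in forelimb replicate 2 alone. Perp, Grhl3, Itga6, Dsp and Epcam had one in all 5 libraries. Of 10 forebrain markers, 5, 3, 3 and 3 had one in the ectoderm libraries, against 10 in forebrain. Pax6, Neurod1, Dcx, Fabp7 and Otx2 had none in ectoderm, and Sox2 and Emx2 had one in all 5 libraries. Of 8 limb mesenchyme markers, 4, 5, 3 and 5 had one in ectoderm and 6 in forebrain. Tbx15 and Runx2 were at 0 in every library, and Col1a2 and Sox9 had one in all 5. The counts for endothelium were 4, 2, 3 and 3 of 6 in ectoderm and 4 in forebrain (Pecam1 and Emcn at 0 throughout, Kdr and Tek with one in all 5). Those for blood were 2, 1, 1 and 1 of 5 in ectoderm and 2 in forebrain (Ptprc, Gata1 and Csf1r at 0 throughout, Spi1 with one in all 5). Those for melanocytes were 3 of 6 in each of the 5 libraries (Sox10 and Tyr at 0 throughout, Mitf and Pmel with one in all 5). The third gene differed: Mlana had one in every ectoderm library and none in forebrain, and Dct had one in forebrain alone. The part of such cells in the cadherin results was not tested.

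The epithelial pair and the other 6 genes stood on opposite sides of forebrain. Summits at Cdh1 and Cdh3 made up a larger part of every ectoderm list than of the forebrain list, by about 3 to 1, and summits at each of the other 6 genes made up a smaller part. Cdh1 had 6 and 6 summits in forelimb ectoderm, 4 and 9 in hindlimb ectoderm and 4 in forebrain. Per 10000 listed summits these were 0.726 and 0.739 in forelimb libraries, 0.722 and 1.04 in hindlimb libraries and 0.265 in forebrain. Every ectoderm library was above forebrain, and the ectoderm mean of 0.808 ± 0.158 (SD, n = 4 libraries) was 3.05 times the forebrain value.

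Cdh3, the P-cadherin of basal epidermis and hair placodes, had 8 and 11 summits in forelimb ectoderm, 5 and 8 in hindlimb ectoderm and 5 in forebrain. Its rates were 0.968 and 1.35 per 10000 in forelimb libraries, 0.903 and 0.928 in hindlimb libraries and 0.331 in forebrain. The ectoderm mean of 1.04 ± 0.212 (SD, n = 4) was 3.14 times that of forebrain, and again no ectoderm library overlapped forebrain. In uncorrected counts, forebrain matched the lowest ectoderm library, hindlimb replicate 1, at both genes.

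Among the neural and mesenchymal genes, N-cadherin, the main adhesion protein of neuroepithelium, had 11 and 10 Cdh2 summits in forelimb ectoderm, 6 and 16 in hindlimb ectoderm and 37 in forebrain. Its rate was 1.38 ± 0.336 per 10000 in ectoderm (SD, n = 4) and 2.45 in forebrain. Cdh4, which is named for the retina and is used in brain and kidney, had 20 and 19 summits in forelimb ectoderm, 12 and 22 in hindlimb ectoderm and 63 in forebrain, with rates of 2.37 ± 0.161 in ectoderm (SD, n = 4) and 4.17 in forebrain. Both genes had fewer summits per 10000 in every ectoderm library than in forebrain.

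Cdh6 and Cdh8, type II cadherins that mark subdivisions of the developing forebrain, were ordered likewise. Cdh6 had 9 and 8 summits in forelimb ectoderm, 5 and 11 in hindlimb ectoderm and 31 in forebrain, with rates of 1.06 ± 0.161 per 10000 in ectoderm (SD, n = 4) and 2.05 in forebrain. Cdh8 had 13 and 10 in forelimb ectoderm, 5 and 11 in hindlimb ectoderm and 27 in forebrain, with rates of 1.25 ± 0.274 in ectoderm (SD, n = 4) and 1.79 in forebrain. For Cdh8 the highest ectoderm rate, 1.57 in forelimb replicate 1, came close to forebrain.

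Cdh11, the cadherin of mesenchyme and bone-forming cells, had 9 and 11 summits in forelimb ectoderm, 4 and 7 in hindlimb ectoderm and 33 in forebrain. Its ratio of ectoderm to forebrain, 0.455, was the lowest of the 8 genes, at rates of 0.994 ± 0.286 in ectoderm (SD, n = 4) and 2.18 in forebrain. Cdh13, which is held to the membrane by a lipid anchor and lacks the catenin-binding tail, had 31 and 22 summits in forelimb ectoderm, 18 and 35 in hindlimb ectoderm and 67 in forebrain. Its rates of 3.44 ± 0.592 in ectoderm (SD, n = 4) and 4.43 in forebrain gave the ratio nearest to 1 among the 6, 0.776, and hindlimb replicate 2 reached 4.06. By this ratio the genes ran Cdh3 and Cdh1 at the top, then Cdh13, Cdh8, Cdh4, Cdh2, Cdh6 and Cdh11. Neighbours in that order differed by less than the larger of their ectoderm SDs (taken relative to forebrain), except for the step between the epithelial pair and Cdh13.

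**Figure D1:**
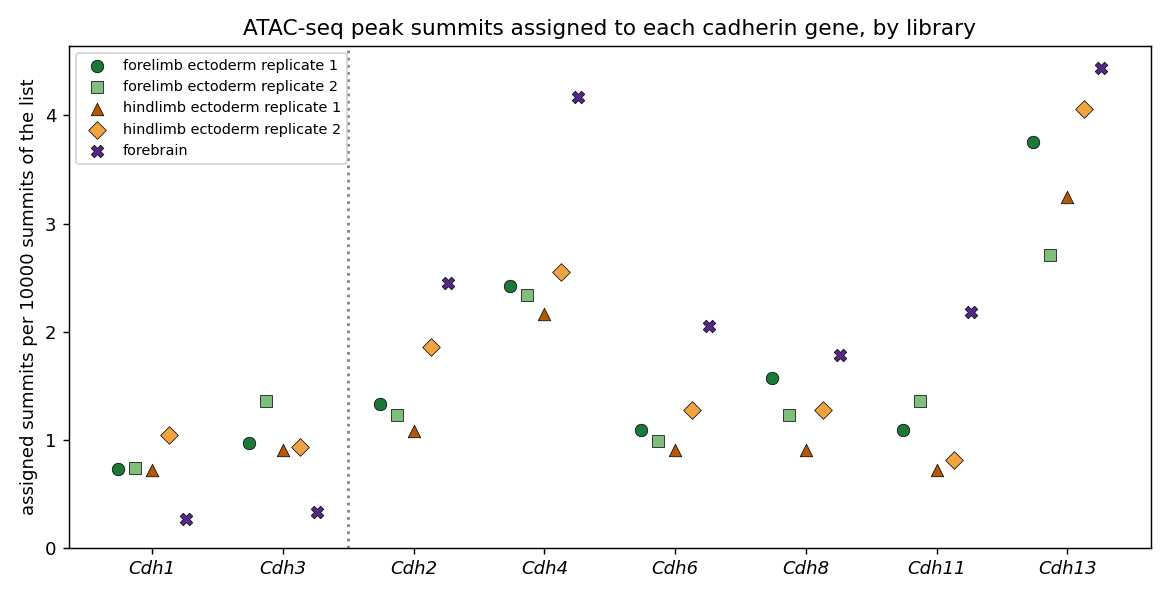
Peak summits assigned to each cadherin gene (horizontal axis) per 10000 summits of the library's own list (vertical axis); each symbol is 1 library, with the ectoderm libraries to the left of forebrain in each gene and the dotted line dividing the epithelial pair from the other 6 genes. Forebrain lies below the 4 ectoderm libraries at Cdh1 (0.265) and Cdh3 (0.331) and above them at the other 6 genes.

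Set against all genes, 28.3% of 19413 protein-coding genes with at least 1 summit had a higher rate in each of the 4 ectoderm libraries than in forebrain, and 17.8% had a lower rate in each. Of the 8 cadherins, 2 were in the first class and 6 in the second. The median difference between ectoderm and forebrain was -0.99 per 10000 over the 8 genes and 0.05 over all genes with a summit. No test was made, since forebrain has 1 library and the genes were chosen with earlier results known.

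Corrected for length, the epithelial pair was the denser in ectoderm and the sparser in forebrain. The stretches nearer to Cdh1 and Cdh3 than to other genes within the limit spanned 96.527 and 111.233 kb. Those of the other 6 spanned 294.413 (Cdh6) to 1294.72 kb (Cdh13). The pair held 6.74 and 8.18 summits per 100 kb in forelimb ectoderm, 4.33 and 8.18 in hindlimb ectoderm and 4.33 in forebrain. The other 6 together held 2.71 and 2.33 per 100 kb in forelimb ectoderm, 1.46 and 2.97 in hindlimb ectoderm and 7.52 in forebrain. The ratio of the pair's density to that of the 6 was thus 2.49, 3.51, 2.97 and 2.75 in the ectoderm libraries and 0.576 in forebrain. The ratio is taken within 1 library and so needs no scaling by list length.

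Over all genes and the same distance limit, density was 3.70 and 3.56 summits per 100 kb in forelimb ectoderm, 2.46 and 3.89 in hindlimb ectoderm and 6.52 in forebrain. In ectoderm Cdh1 and Cdh3 exceeded the density over all genes in every library, whereas in forebrain they lay below it, at 4.14 and 4.50. Forebrain density was above that over all genes at Cdh4 (13.2), Cdh6 (10.5), Cdh11 (9.34) and Cdh2 (8.80). It was below at Cdh13 (5.17) and Cdh8 (4.55). In every ectoderm library 5 of the 6, all but Cdh4, had fewer summits per 100 kb than all genes together.

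As a share of the summits of all 8 genes, the epithelial pair held 14 of 107 (13.1%, exact 95% interval 7.34 to 21.0) in forelimb replicate 1 and 17 of 97 (17.5%, 10.6 to 26.6) in forelimb replicate 2. It held 9 of 59 (15.3%, 7.22 to 27.0) in hindlimb replicate 1 and 17 of 119 (14.3%, 8.55 to 21.9) in hindlimb replicate 2. In forebrain it held 9 of 267 (3.37%, 1.55 to 6.30). The forebrain interval lies below each ectoderm interval. Such intervals cover counting error only and treat summits as independent, which neighbouring summits need not be.

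Merged into regions, the 2 sets differed again. A region is called ectoderm-only here if each of the 4 ectoderm libraries had a peak in it and forebrain had none, and forebrain-only if forebrain had a peak and no ectoderm library did. Cdh1 and Cdh3 had 23 regions, of which 3 were ectoderm-only (13.04%, exact 95% interval 2.78 to 33.6), against 2.35% over all regions assigned to genes, and 1 was forebrain-only (4.35%, 0.11 to 21.9), against 32.1%. The other 6 genes had 382 regions, of which 5 were ectoderm-only (1.31%, 0.426 to 3.03) and 172 forebrain-only (45.03%, 40.0 to 50.2). Without hindlimb replicate 1, the library with the fewest peaks, the pair had 6 ectoderm-only regions of 22 and the other 6 genes had 9 of 353, against 5.18% over all genes.

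Each of the 6 had a larger forebrain-only share than the 32.1% over all genes. Cdh2 had 25 forebrain-only regions of 45 (55.6%), Cdh11 22 of 40 (55.0%), Cdh4 42 of 88 (47.7%), Cdh6 21 of 44 (47.7%), Cdh8 18 of 45 (40.0%) and Cdh13 44 of 120 (36.7%). The exact 95% intervals of Cdh2 (40.0 to 70.4), Cdh4 (37.0 to 58.6), Cdh6 (32.5 to 63.3) and Cdh11 (38.5 to 70.7) lay above that background, and those of Cdh8 (25.7 to 55.7) and Cdh13 (28.1 to 45.95) included it. These intervals, too, cover counting error only and treat the regions of a gene as independent. They are no test of a tissue difference, since forebrain has 1 library. Cdh1 had 1 forebrain-only region of 11 and Cdh3 had 0 of 12 (exact 95% interval 0 to 26.5).

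**Figure D2:**
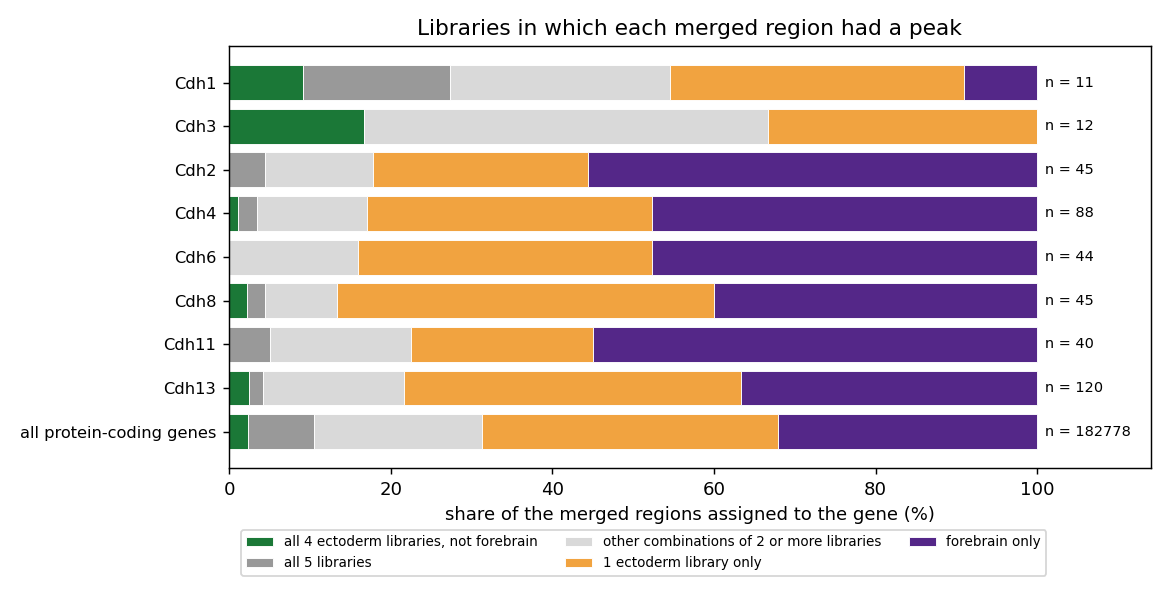
Share of the merged regions of each cadherin gene, and of all protein-coding genes at the bottom, by the libraries in which the region had a peak; n is the number of regions. The forebrain-only part runs between 36.7% (Cdh13) and 55.6% (Cdh2) at the 6 neural and mesenchymal genes, is 1 region of 11 at Cdh1 and is missing at Cdh3.

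Regions of the epithelial pair also recurred across libraries more often. Of their 23 regions, 9 (39.1%) had a peak in 1 library only, against 311 of 382 (81.4%) at the other 6 genes and 68.7% over all genes. The forebrain-only regions given above are part of these counts: 1 of the 9, 172 of the 311 and 58628 of 125510 over all genes. Counting peaks in 3 or more ectoderm libraries and none in forebrain, the pair had 7 of 23 regions and the other 6 genes had 9 of 382. The share over all genes was 5.37%. Of the regions with a forebrain peak, 5 of 6 at the pair and 37 of 209 (17.7%) at the other 6 genes also had a peak in at least 1 ectoderm library, against 39.6% over all genes. With each ectoderm library in turn in the place of forebrain, the pair had 2 regions missing only from hindlimb replicate 1 and 0 missing only from any other, against 3 missing only from forebrain.

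The 2 epithelial genes lie next to each other on chromosome 8 (mm10), Cdh3 at chr8:106510852-106556911 and Cdh1 at chr8:106603350-106670247, with 46.439 kb between them and no protein-coding gene in it. Transcription of both is known to begin at the low-coordinate end. The region with the highest fold in each hindlimb library and in forelimb replicate 2 was in the gap, at chr8:106563611-106564334, 7.15 kb beyond Cdh3. It was ectoderm-only, with a fold enrichment of 7.19 and 8.84 in forelimb replicates 1 and 2 and of 6.86 and 11.95 in the hindlimb pair, each relative to the background of that library. The reads at its summit numbered 72, 81, 73 and 162 in these libraries, and the nearest forebrain peak was 2223 bp away. Ranked by p within each list it was at percentiles 91.0, 93.8, 94.3 and 96.5. The nearest forebrain peak belongs to another region of the gap, chr8:106561079-106561453, with a fold of 4.50 and 3.04 in forelimb replicates 1 and 2, 3.56 in hindlimb replicate 2 and 3.74 in forebrain.

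A further ectoderm-only region lay on the other side of Cdh3, at chr8:106469456-106469921, 41.2 kb from the gene. It had a fold of 7.77 and 6.44 in forelimb ectoderm and of 6.10 and 8.77 in hindlimb ectoderm, with 40, 42, 44 and 72 reads at the summit. No forebrain peak was nearer than 35810 bp. Forebrain had its own strongest peak of the locus between that region and Cdh3, at chr8:106507662-106508420, its forebrain summit 2.998 kb before the gene. Its fold was 2.74 in forelimb replicate 1 and 7.21 in forebrain, with 24 and 71 reads at the summit in these libraries, and no peak in the other 3.

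At the start of Cdh3, the region chr8:106510437-106511574 had 60 and 53 reads at the summit in forelimb replicates 1 and 2, 76 in hindlimb replicate 2 and 27 in forebrain. Hindlimb replicate 1 had no peak there. The folds were 6.63 and 5.67 in forelimb, 7.91 in hindlimb replicate 2 and 2.85 in forebrain. Inside Cdh3, peaks were found in ectoderm and not in forebrain. Of these, chr8:106528564-106529163 had folds of 4.44 and 2.88 in forelimb ectoderm and 3.66 in hindlimb replicate 2, and chr8:106516531-106516907 had 3.90 in forelimb replicate 2 and 2.31 and 5.31 in hindlimb ectoderm.

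The start of Cdh1 had a peak in all 5 libraries, at chr8:106603118-106603892. Its summit reads numbered 53 and 36 in forelimb ectoderm, 48 and 103 in hindlimb ectoderm and 23 in forebrain. The folds were 7.54 and 4.95 in forelimb ectoderm, 4.62 and 9.90 in hindlimb ectoderm and 4.27 in forebrain. The forebrain peak sat at percentile 47.9 of its list by p, and the ectoderm peaks at 88.5, 75.2, 85.6 and 92.5 of theirs. Forebrain thus had a peak at the E-cadherin start, of middling strength for its list.

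Inside Cdh1, 16.4 kb from the start, the region chr8:106619464-106620021 was about as strong as the start itself in ectoderm. Its folds were 8.31 and 7.01 in forelimb ectoderm, 3.71 and 9.499 in hindlimb ectoderm and 2.67 in forebrain. The summit reads were 73, 59, 34 and 109 in the ectoderm libraries and 14 in forebrain, close to the fewest that were called in that list, where it was at percentile 8.10 by p. The ectoderm-only region of the gene, chr8:106646673-106647225, lay 43.5 kb from the start. Its folds were 2.91 and 2.15 in forelimb ectoderm and 2.83 and 5.01 in hindlimb ectoderm. By p it was low in the forelimb lists (percentiles 24.8 and 0.06) and higher in the hindlimb lists (47.5 and 75.1). In forelimb replicate 2 its −log10 q was 1.32, at the edge of the authors' threshold. The forebrain-only region, chr8:106599710-106599921, 3.55 kb before the gene, had a fold of 3.20 and 17 reads at its summit.

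**Figure D3:**
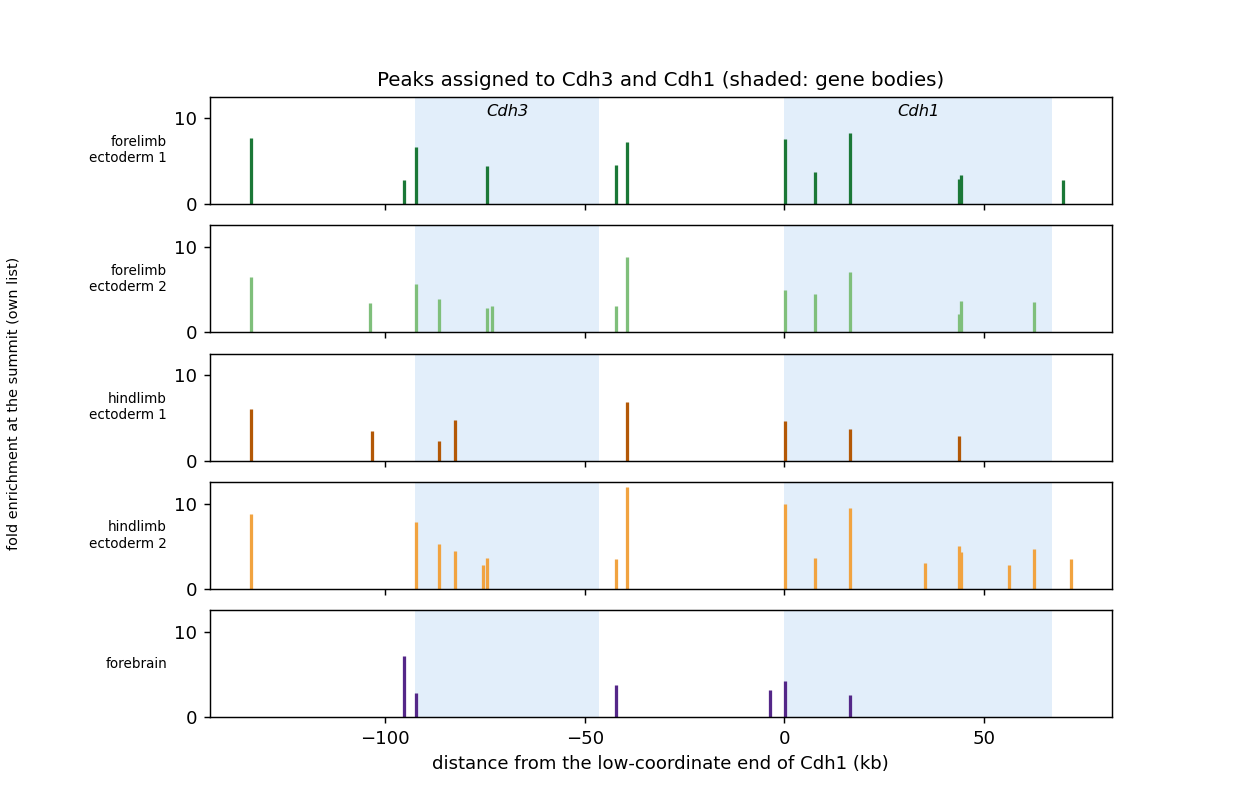
Peaks assigned to Cdh3 and Cdh1 by distance from the low-coordinate end of Cdh1 (horizontal axis, kb), with the fold enrichment at the summit in the library's own list (vertical axis); rows are the 4 ectoderm libraries and, at the bottom, forebrain, and gene bodies are shaded. The tall ectoderm peaks 41.2 kb before Cdh3 and 7.15 kb beyond it have no counterpart in forebrain, whereas the starts of both genes have a low forebrain peak.

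At the gene starts compared here, 5 of the 6 neural and mesenchymal cadherins had more reads at the summit in forebrain than in any ectoderm library. The sixth, Cdh13, had no peak within 1 kb of a gene end and was not compared. The region within 1 kb of a gene end, or over the promoter window given by RefSeq, that had a peak in most libraries was taken for each gene. That choice was made after the values were seen, and it favours regions with peaks in both tissues. Cdh2 had 42 and 34 reads at the summit in forelimb ectoderm, 27 and 37 in hindlimb ectoderm and 351 in forebrain. Cdh4, at chr2:179442111-179443872, had 46 and 39 in forelimb ectoderm, 38 and 49 in hindlimb ectoderm and 234 in forebrain. Cdh11, at chr8:102784803-102785642, had 49 and 43 in forelimb ectoderm, 23 and 48 in hindlimb ectoderm and 162 in forebrain. At each of these genes the 4 ectoderm read numbers lay together and forebrain stood far above them. By fold this did not hold at Cdh11, where forebrain (5.14) was slightly below forelimb replicate 1 (5.19).

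Cdh6 and Cdh8 are the members whose promoter sequence is in the RefSeq table used here (2 of 8 members, GRCm38.p6, 250 bases before to 50 after the start site), and both windows overlapped peaks. Ectoderm peaks covered 65.3% and 37.7% of the Cdh6 window in forelimb replicates 1 and 2 and 45% in hindlimb replicate 2, and the forebrain peak covered 100%. Peaks covered 100% and 98% of the Cdh8 window in forelimb ectoderm, 95% and 100% in hindlimb ectoderm and 100% in forebrain. The Cdh6 window, chr15:13173626-13173925 on the minus strand, and the Cdh8 window, chr8:99416422-99416721 on the minus strand, are shown because the same start carries a small peak in ectoderm and a large one in forebrain. They read 5′ to 3′, with the motif matches described next in capitals.
Cdh6: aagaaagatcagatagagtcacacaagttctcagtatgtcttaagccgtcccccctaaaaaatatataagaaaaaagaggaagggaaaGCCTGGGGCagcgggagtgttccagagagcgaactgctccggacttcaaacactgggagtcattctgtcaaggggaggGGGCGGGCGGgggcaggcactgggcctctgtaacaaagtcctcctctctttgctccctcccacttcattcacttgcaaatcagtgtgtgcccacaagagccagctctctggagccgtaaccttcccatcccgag
Cdh8: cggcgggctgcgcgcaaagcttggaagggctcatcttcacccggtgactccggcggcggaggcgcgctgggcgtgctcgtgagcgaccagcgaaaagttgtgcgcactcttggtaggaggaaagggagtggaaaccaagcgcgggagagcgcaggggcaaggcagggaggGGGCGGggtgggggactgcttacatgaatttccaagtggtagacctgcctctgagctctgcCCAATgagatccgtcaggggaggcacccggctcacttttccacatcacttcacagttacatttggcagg

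The Cdh6 window was 53% G or C with 8 CG pairs, and the Cdh8 window was 62.3% G or C with 21, against medians of 52.7% and 7 over 32851 promoters of the same length. Of the motifs searched on both strands, the GC box GGGCGG was found at 2 overlapping places in Cdh6, 84 and 80 bases before the start site, and at 1 place in Cdh8, 80 bases before it, and 35.7% of all promoters hold it. The AP-2 motif GCCNNNGGC was found in Cdh6, 162 bases before the start site, and 16.6% of promoters hold it. CCAAT was found in Cdh8, 19 bases before the start site, and 37.4% hold it. The E-box CAGGTG, which Snai and Zeb repressors bind and which is known from the E-cadherin promoter (20.2% of promoters), TATAAA (13.6%) and the AP-1 motif TGANTCA (7.81%) were in neither window.

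At the Cdh6 start, forelimb replicates 1 and 2 had 34 and 36 reads at the summit, hindlimb replicate 2 had 32, hindlimb replicate 1 had no peak, and forebrain had 273. The forebrain peak was 1507 bp long and held 3 summits, with the strongest 23 bases from the start site at a fold of 10.4. The ectoderm peaks were 577, 431 and 512 bp long, with folds of 5.29 and 4.61 in forelimb ectoderm and 4.06 in hindlimb replicate 2. At the Cdh8 start, the reads numbered 36 and 32 in forelimb ectoderm, 23 and 43 in hindlimb ectoderm and 191 in forebrain. The forebrain peak was 2411 bp long and ran into the gene with 6 summits. The ectoderm peaks were 659 and 464 bp in forelimb and 309 and 459 bp in hindlimb. The ectoderm summits lay 47 to 92 bases from the Cdh8 start site, where the strongest forebrain summit lay 49 bases away.

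The part of sequencing depth in these read numbers was not tested; the implied background rate was 3.1 to 4.36 reads per position in ectoderm and 4.62 in forebrain. The local background at these starts was 22.8 to 50.1 reads in forebrain and 5.62 to 12.3 in ectoderm, which lowers the fold in forebrain more than in ectoderm. The folds in forebrain at the 5 starts, 5.14 to 10.4, are for that reason closer to the ectoderm folds of 3.21 to 5.66 than the reads are. Cdh13 had no peak within 1 kb of either end in any library. A region 1.81 kb beyond its low-coordinate end had folds of 4.38 in forelimb replicate 1 and 3.29 in hindlimb replicate 2. The nearest forebrain peak to that region was 8965 bp away.

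**Figure D4:**
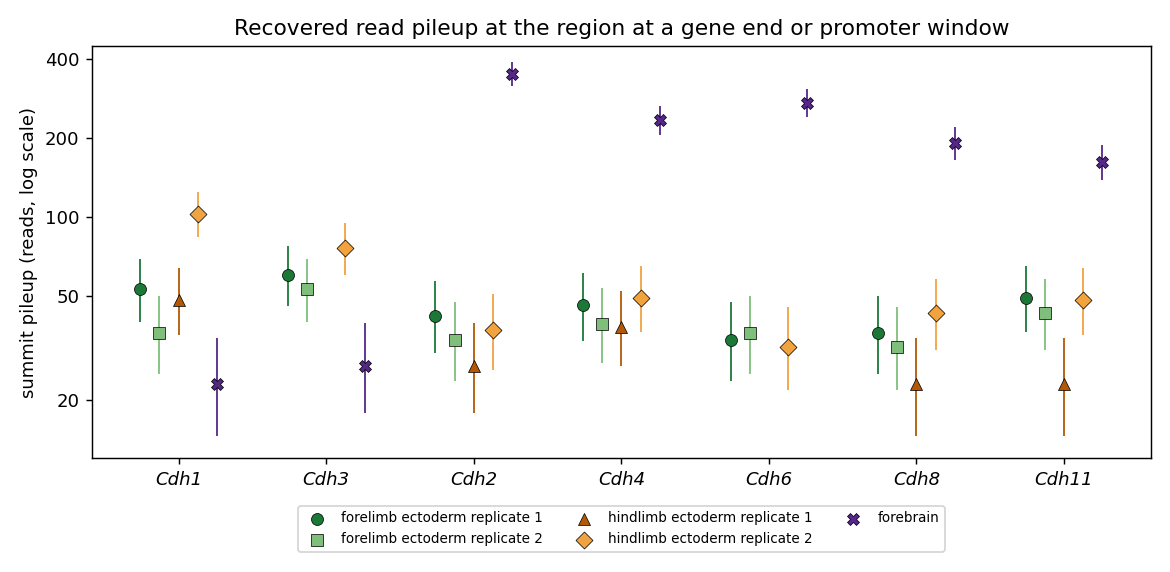
Reads at the strongest summit (vertical axis, log scale) of the region at a gene end or promoter window of 7 cadherin genes, by library; bars are exact 95% Poisson intervals, which cover counting error only, and a missing symbol means no called peak. Forebrain (23 and 27 reads) lies below the ectoderm libraries that have a peak at Cdh1 and Cdh3, and above those that have one (162 to 351 reads) at the other 5 genes. Hindlimb replicate 1 has no peak at Cdh3 or Cdh6. At Cdh1 the forebrain interval (14.6 to 34.5) overlaps that of forelimb replicate 2 (25.2 to 49.8).

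By gene ends alone (a summit within 1 kb of either end), 5, 5, 4 and 5 of the 8 cadherins had a peak in forelimb replicates 1 and 2 and hindlimb replicates 1 and 2, and 6 had one in forebrain. Over all 21887 protein-coding genes the counts were 13154, 12599, 11240 and 13064 in these ectoderm libraries and 14160 in forebrain. Cdh1, Cdh2, Cdh4 and Cdh11 had one in all 5 libraries, which 46.4% of protein-coding genes did. No cadherin of the 8 combined gene-end peaks in the 4 ectoderm libraries with none in forebrain, a pattern that 0.585% of genes showed. Cdh6 had one in forebrain and in no ectoderm library, as 4.08% of genes did, at its low-coordinate end, since its start site lies over 1 kb inside the annotated gene.

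Away from the starts, the forebrain-only regions of the 6 genes were mostly intragenic, 138 of 172, as were 304 of their 382 regions. Their median fold was 3.54 in the forebrain list, against 3.38 for forebrain-only regions over all genes, and 97 of the 172 (56.4%) had a −log10 q of 5 or more, against 55.3% over all genes. The strongest lay in Cdh4 at chr2:179537215-179537876, 95.2 kb into the gene, with a fold of 12.1 and 253 reads at the summit, at percentile 95.3 of the forebrain list. The next in that gene, chr2:179787046-179788089, had a fold of 8.60 and 84 reads.

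In Cdh8, chr8:99304124-99304674 had a fold of 12.1 and 92 reads, and chr8:99234405-99234997 had 9.07 and 85 reads. In Cdh11, chr8:102698114-102698889 had a fold of 9.23 and 111 reads, and chr8:102726408-102727073 had 8.69 and 101 reads. In Cdh13 the strongest were chr8:118712899-118713532 (fold 7.96, 85 reads) and chr8:118161889-118162634 (fold 8.68, 57 reads), and in Cdh6 chr15:13100342-13100847 (fold 7.75, 66 reads) and chr15:13130334-13130825 (fold 5.30, 50 reads). The 2 strongest of Cdh2 on chromosome 18 had folds of 7.53 and 8.63, with 128 and 68 reads, 95.7 and 46.6 kb from its high-coordinate end. All lay inside their genes.

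**Figure D5:**
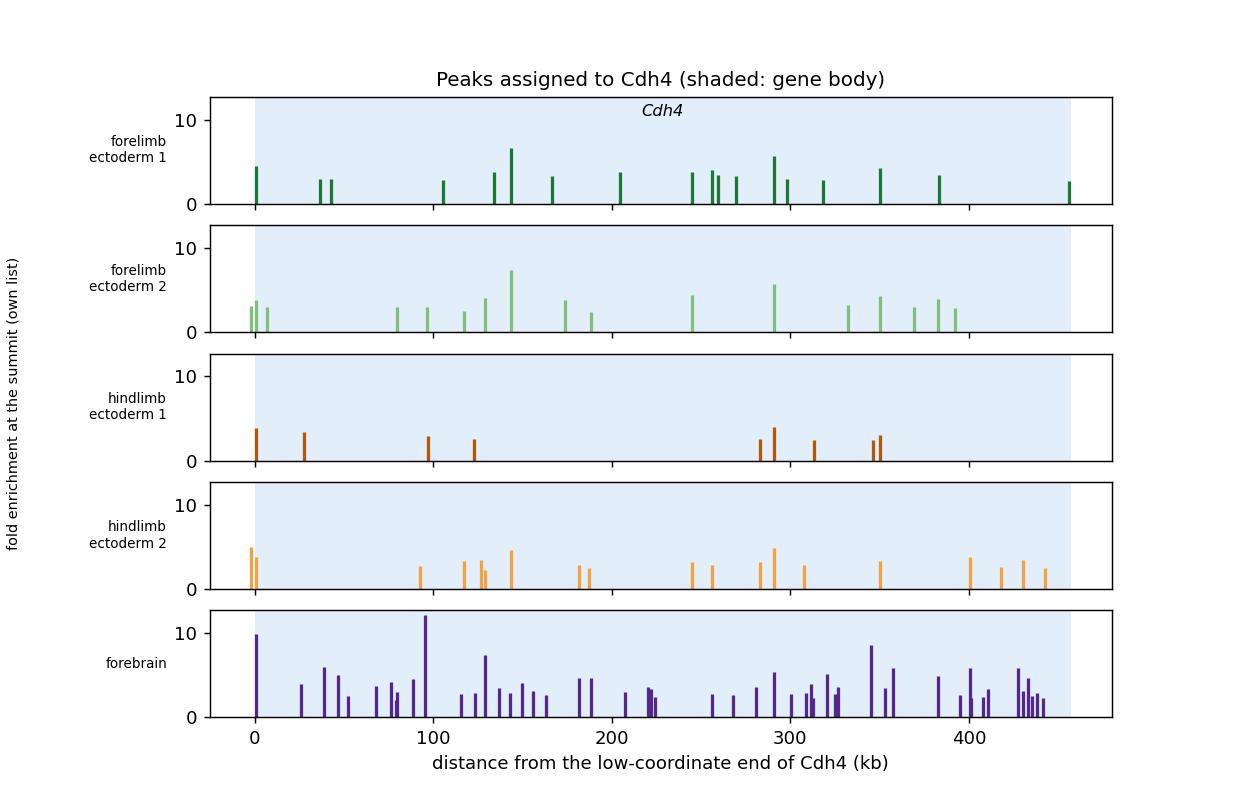
Peaks assigned to Cdh4 by distance from its low-coordinate end (horizontal axis, kb), with the fold enrichment at the summit in the library's own list (vertical axis); rows are the 4 ectoderm libraries and, at the bottom, forebrain, and the gene body is shaded. Forebrain has peaks in 52 regions along the gene, the tallest 95.2 kb into it, against 9 to 19 regions in the ectoderm libraries.

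Some regions of the neural and mesenchymal genes were nevertheless ectoderm-only. Cdh13 had 3 of the 5. The strongest, chr8:118316336-118317056, had folds of 5.63 and 4.16 in forelimb ectoderm and 5.66 and 10.2 in hindlimb ectoderm, with 42, 34, 51 and 104 reads, and a forebrain peak 567 bp away. The others were chr8:118879870-118880276, with folds of 4.46 and 2.66 in forelimb ectoderm and 3.74 and 5.19 in hindlimb ectoderm, and chr8:119258712-119259033, with 6.80 and 3.65 in forelimb ectoderm and 2.89 and 4.15 in hindlimb ectoderm. The region at chr8:119258712-119259033 lay 61674 bp from any forebrain peak.

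Cdh8 had an ectoderm-only region 49.1 kb from the gene, chr8:98975030-98975522, with folds of 6.59 and 8.34 in forelimb ectoderm and 2.98 and 6.33 in hindlimb ectoderm. Cdh4 had one at chr2:179792363-179792772, 350.15 kb into the gene, with folds of 4.26 and 4.34 in forelimb ectoderm and 3.03 and 3.31 in hindlimb ectoderm. A stronger Cdh4 region, chr2:179585601-179586027, had 6.64 and 7.36 in forelimb ectoderm and 4.65 in hindlimb replicate 2, with no peak in hindlimb replicate 1 and a forebrain peak 127 bp away. At a −log10 q of 5 or more, 3 of 14 regions of the epithelial pair (21.4%) and 2 of 180 regions of the other 6 genes (1.11%) were ectoderm-only, against 2.95% over all genes.

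Regions away from the starts that had a peak in all 5 libraries were few. Cdh1 had 1, the region chr8:106619464-106620021 described above. Cdh2 had 1 at 12.9 kb beyond its high-coordinate end, with folds of 8.26 and 7.83 in forelimb ectoderm, 4.33 and 8.31 in hindlimb ectoderm and 10.1 in forebrain. Cdh11 had 1 at chr8:102553266-102553908, 78.5 kb from the gene, with folds of 5.79 and 7.20 in forelimb ectoderm, 4.51 and 7.04 in hindlimb ectoderm and 7.03 in forebrain. Cdh4 had 1 at chr2:179733109-179734014, with 5.68 and 5.66 in forelimb ectoderm, 3.98 and 4.90 in hindlimb ectoderm and 5.35 in forebrain. Cdh13 had 2, chr8:118830295-118830908 and chr8:119020699-119021190, with folds of 2.89 and 4.14 in forebrain and of 3.17 to 6.11 in ectoderm. In all, and with the starts included, 11 of the 405 regions had a peak in every library, against 8.15% over all genes. They were 2 of 23 regions at the epithelial pair (8.70%) and 9 of 382 at the other 6 genes (2.36%).

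Forelimb and hindlimb ectoderm were close to the background of all genes at these loci. Forelimb-only regions, with peaks in forelimb replicates 1 and 2 and no hindlimb peak, numbered 8 of 405 (1.98%), against 1.98% over all genes, and the reverse was found for 1 (0.247%), against 0.672%. These counts change where 1 library stands for a limb, with the share over all genes changing likewise. Without forelimb replicate 1 the forelimb count was 45 (12.3%, against 13.4% over all genes) and the hindlimb count 2 (0.546%, against 1.33%). Without forelimb replicate 2 they were 53 (14.1%, against 13.8%) and 2 (0.531%, against 1.27%). Without hindlimb replicate 1 the hindlimb count was 52 (13.9%, against 14.2%). Without hindlimb replicate 2 the forelimb count was 21 (5.87%, against 8.41%) and the hindlimb count 33 (9.22%, against 11.1%). No test was made, because 2 libraries against 2 cannot reach a two-sided exact p below 0.333.

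The hindlimb region lay inside Cdh3, at chr8:106520530-106520911, 9.89 kb from its start, with folds of 4.73 and 4.42 in the hindlimb libraries and 44 and 39 reads at the summit. Of the forelimb regions, 3 were at Cdh11. One of them, chr8:102631139-102631661, lay 0.765 kb beyond the low-coordinate end of that gene and had folds of 5.39 and 7.20 and 24 and 35 reads in the forelimb libraries, with no peak in the other 3 libraries. Cdh8 had 2, and Cdh2, Cdh6 and Cdh13 had 1 each, with folds between 2.93 and 4.74. The Cdh11 region chr8:102780760-102781251 and the Cdh13 one also had a forebrain peak.

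Of the 12 remaining classical cadherins, 9 had fewer summits per 10000 in each ectoderm library than in forebrain, against 17.8% of all genes. Only 1 (Cdh24) had more, against 28.3% of all genes, and Cdh9 and Cdh19 had libraries on either side. Of the 368 regions of these 12 genes, 7 were ectoderm-only (1.90%, against 2.35% over all genes) and 174 forebrain-only (47.3%, against 32.1%). The median difference between ectoderm and forebrain over the 12 genes was -0.41 per 10000. The largest differences were at Cdh12 (-1.52), Cdh22 (-1.49), Cdh7 (-0.86) and Cdh10 (-0.84), all members of the type II group. Cdh12 had 17 and 26 summits in forelimb ectoderm, 10 and 19 in hindlimb ectoderm and 58 in forebrain. Cdh5, the cadherin of endothelium, had 9 and 11 in forelimb ectoderm, 3 and 6 in hindlimb ectoderm and 21 in forebrain. Its gene ends had a peak in forebrain alone.

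Catenins couple cadherins to actin. Of 7 genes, 2 (a share near the 28.3% over all genes) had more summits per 10000 in each ectoderm library than in forebrain. They were Ctnnd1, which encodes p120, and Jup, plakoglobin. Another 2, Ctnna3 and Ctnnd2, had fewer, against 17.8% of all genes. Jup had 5 and 4 summits in forelimb ectoderm, 5 and 4 in hindlimb ectoderm and 3 in forebrain, a difference of 0.42 per 10000. Ctnnd2, a neural relative of p120, had 26 and 32 in forelimb ectoderm, 23 and 29 in hindlimb ectoderm and 84 in forebrain, a difference of -1.91. The neural alpha-catenin Ctnna2 (-0.90) and Ctnna3 (-0.89) followed. A gene-end peak was found in all 5 libraries at 6 of the 7, against 46.4% of all genes, and at Ctnnd1 in forebrain alone. Of the 434 catenin regions, 7 were ectoderm-only (1.61%, against 2.35% over all genes) and 175 forebrain-only (40.3%, against 32.1%).

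Another list held 6 transcription factors known to repress Cdh1 or to drive loss of epithelial character. Of these, 1 had more summits per 10000 in each ectoderm library than in forebrain (Snai2, difference 0.29), against 28.3% of all genes. Another 3 of the 6 had fewer, against 17.8% of all genes. The largest difference was at Zeb2 (-1.73), with 3 and 7 summits in forelimb ectoderm, 6 and 5 in hindlimb ectoderm and 37 in forebrain. Its gene ends, too, had a peak in forebrain alone. Twist2 (-0.46) and Twist1 (-0.24) had smaller ones, and at Twist1 an ectoderm library lay above forebrain. Of the 104 regions of this list, 2 were ectoderm-only (1.92%, against 2.35% over all genes) and 45 forebrain-only (43.3%, against 32.1%).

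The genes most like Cdh1 in summits per 10000 over the 5 libraries, by Euclidean distance of log2(value + 0.1) among 6352 genes with at least 20 summits, were Gm40011 (distance 0, with the same 5 counts), Acad11 (0.229) and Vmn2r87 (0.241). Those most like Cdh3 were Rtn4 (0.360), Pard6g (0.360) and Plod2 (0.381).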

How the data were processed

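Peaks were deposited as a separate list for each library, with replicates not pooled. Per the submitters' processing notes, MACS2 2.1.1.20160309, Bowtie2 2.3.5, cutadapt 1.16, bedtools and Picard were used with the mm10 build. Whether reads were shifted is not given in the sources used. Each deposited row gives an interval, a summit offset, a score (not used), a fold enrichment, −log10 p and −log10 q. These are the authors' values for their own list; the lowest −log10 q was 1.30 to 1.31 in every library, and read depth is unknown.

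Rows on chromosomes 1 to 19, X and Y were used with Python 3.11.15, pandas 2.3.3 and scipy 1.17.1. Summits were assigned to genes of a RefSeq table (GRCm38.p6), ties kept. Peaks overlapping by 1 bp were merged. Summit reads and local background were solved from fold and p under a Poisson model (pseudocount 1), met within 0.01 in −log10 units, or proportionally for very small p, for 100% of rows; the most frequent background is the library rate. Scripts were tested on simulated data. Shares carry Clopper-Pearson 95% intervals. Named regions are those in all 4 ectoderm libraries and the 2 strongest forebrain-only per gene; named list genes are up to 4 per list by difference between tissues; others were chosen after their values were seen. The members and lists were chosen with earlier results of these data known. Alternatives are in the closing section.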

Additional observations from a re-analysis of the deposited data

Results flagged for a closer look

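With the 4 ectoderm libraries taken as 1 group for each of the 8 genes, hindlimb replicate 2 stood apart at Cdh1, with 1.04 summits per 10000 listed summits against 0.722 to 0.739 in the other 3. Forelimb replicate 2 stood apart at Cdh3, with 1.35 against 0.903 to 0.968 in the other 3. Both rest on a few summits, 9 against 4 to 6 at Cdh1 and 11 against 5 to 8 at Cdh3. The mark is a gap to the nearest library that exceeds the 95% critical value of Dixon's test as a share of the group's range, and chance alone gives it in about 1 in 20 such groups. Forebrain was below the other 3 ectoderm libraries at both genes, at 0.265 and 0.331.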

How the results depend on the processing

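Of 64 counts recomputed under other settings, 45 stayed within 1.5 times the reported count and 19 did not. The causes were not tested, except that leaving out a limb library lets 1 library stand for that limb. Requiring −log10 q of at least 5 left the 6 neural and mesenchymal genes with 180 regions. Of these, 2 were ectoderm-only (1.11%, against 2.95% over all genes) and 106 forebrain-only (58.9%, against 41%). Forelimb-only regions at the 8 genes then numbered 3 (1.55%, against 2.12% over all genes). With lists of equal length (55391 summits), the 6 genes had 43 forebrain-only regions of 164 (26.2%, against 14.7% over all genes). At the 8 genes, forelimb-only regions numbered 5 (2.78%, against 2.74%) and hindlimb-only regions 3 (1.67%, against 1.11%). With an overlap of at least 100 bp, the epithelial pair had 2 forebrain-only regions of 24 (8.33%, against 32.2% over all genes). Hindlimb-only regions at the 8 genes then numbered 2 (0.484%, against 0.59%). Leaving out each ectoderm library in turn gave the pair 3 to 6 ectoderm-only (13.6 to 27.3%) and 1 to 2 forebrain-only regions (4.55 to 9.09%). The other 6 genes had 5 to 9 (1.45 to 2.55%) and 174 to 180 (49.3 to 51.9%). Over all genes these shares were 2.72 to 5.18% and 35.8 to 37.8%. Forelimb-only regions numbered 8 to 53 (2.13 to 14.1%, against 2.42 to 13.8% over all genes). Hindlimb-only regions numbered 2 to 52 (0.531 to 13.9%, against 1.27 to 14.2%). Under each of the 9 other settings for regions the pair had a larger ectoderm-only share and a smaller forebrain-only share than all genes. No paired analysis was possible because the results come from no test. Read depth is unknown, and a peak missing from a library may lie just under the threshold.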
